A study of Mus musculus with 12 samples.

Results

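Collagen genes were taken as every gene whose symbol has the form Col, a number, the letter a and a number, which gave 44 of the 24062 genes counted in each library. By the type of structure their chains build, 11 were fibrillar collagens, 8 were basement membrane collagens and 25 were other collagens (fibril-associated, beaded-filament, network-forming, transmembrane and anchoring forms). The libraries came from 4 groups of female C57BL/6N mice on chow: liver of mice homozygous for the R135W allele of Mars2 (R135W/R135W), liver of wild-type (WT) mice, gastrocnemius of R135W/R135W mice and gastrocnemius of WT mice. Mars2 encodes the mitochondrial methionyl-tRNA synthetase, and gastrocnemius is a calf muscle. Each group held 3 libraries: animals 5, 7 and 12 carried R135W and animals 6, 8 and 9 were WT, and the same animals gave liver and muscle. Animals 5, 6 and 8 were 9.0 weeks old, animals 7 and 9 were 7.4 weeks old and animal 12 was 8.6 weeks old. The labels gave neither litters nor collection times.

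A collagen molecule is a triple helix of 3 alpha chains, each the product of its own gene, so some types need a pair of genes to be expressed together (Col1a1 with Col1a2 for type I, Col4a1 with Col4a2 for the common form of type IV). Fibrillar collagens form the cable-like fibres of tendon, muscle connective tissue and scar, whereas type IV collagen forms the sheet that underlies endothelium and surrounds each muscle fibre. In liver, hepatic stellate cells are the best known source of fibrillar collagens during injury, and hepatocytes make type XVIII collagen, the precursor of endostatin.

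Libraries held between 20751583 and 30460237 counts assigned to genes. Levels are given as FPKM, that is, counts divided by the gene's exon length and by the library total scaled with TMM (trimmed mean of M-values) factors over the 12 libraries, so that genes of different length can be compared. Mars2 itself had 2.60, 2.39 and 3.62 CPM (the scaled count without the length term) in R135W livers and 2.22, 2.49 and 3.40 CPM in WT livers, and 10.6, 9.54 and 8.90 CPM in R135W muscle against 12.84, 10.996 and 12.14 CPM in WT muscle. R135W changes an amino acid, so a count per gene does not check the genotype labels. Hepatocyte markers summed to between 70544 and 76655 CPM in R135W livers and between 87018 and 88605 CPM in WT livers. In muscle the same markers reached 39.3 CPM in R135W animal 12, against 6.82 CPM or less in the other 5 muscle libraries.

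The liver and the muscle expressed many of the same collagens at different levels, with Col18a1 by far the highest in liver. Col18a1 made up 71.7% to 80.7% of the summed collagen FPKM of the 6 livers, and less than 1% of it in every muscle library. In liver Col18a1 had 198, 215 and 189 FPKM in R135W animals 5, 7 and 12 and 176, 191 and 212 FPKM in WT animals 6, 8 and 9. In muscle it had 1.47, 1.94 and 2.48 FPKM in R135W animals and 1.52, 1.25 and 2.12 FPKM in WT animals. All livers were far above all muscles, and the genotypes overlapped within each tissue.

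In WT mice, 29 of the 36 collagen genes tested differed between liver and gastrocnemius at an adjusted p under 0.05 (edgeR's quasi-likelihood test with Benjamini-Hochberg adjustment over all genes tested, n = 3 each), a share close to the 81.5% of all 14858 genes tested that differed. Only 4 collagen genes were higher in liver, while 40.9% of all genes tested were higher there. They were Col18a1 (log2 difference 6.92 ± 0.24, SE, adjusted p = 4.52e-09), the fibrillar Col27a1 (4.54 ± 0.44, adjusted p = 7.95e-06), Col14a1 (2.58 ± 0.12, adjusted p = 3.72e-08), which binds the surface of fibrils, and the transmembrane Col13a1 (2.47 ± 0.26, adjusted p = 1.28e-05). The other 25 were lower in liver, against 40.6% of all genes tested. At an unadjusted p under 0.05, 30 of the 36 stood (82.4% of all genes tested). In 4 genes every WT liver was above every WT muscle (41.1% of all genes tested) and in 25 below (43.2%). By class, 8 of 10 fibrillar genes were lower in liver and 1 higher, 3 of 7 basement membrane genes lower and 1 higher, and 14 of 19 others lower and 2 higher.

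Col14a1 had 7.64, 7.69 and 6.82 FPKM in the livers of WT animals 6, 8 and 9 and 1.42, 1.25 and 1.13 FPKM in their muscles. Col13a1 had 2.87, 1.65 and 2.34 FPKM in those livers and 0.459, 0.339 and 0.480 FPKM in those muscles. Both genes had every liver above every muscle. Col27a1 ranged from 3.31 to 9.35 FPKM in WT liver, the highest value being that of animal 6, and from 0.191 to 0.284 FPKM in WT muscle.

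The type I chains were lower in liver by a wide margin. Col1a1, on chromosome 11 (94936270-94951856, mm10), had 2.79, 2.54 and 2.13 FPKM in WT livers and 29.3, 20.1 and 63.3 FPKM in WT muscles (log2 difference -3.88 ± 0.40, SE, edgeR adjusted p = 1.2e-05). Col1a2, its partner chain on chromosome 6 (4505697-4541543), differed by -3.41 ± 0.37 (edgeR adjusted p = 1.7e-05), and Col3a1, the type III chain on chromosome 1 (45311538-45349706), by -2.26 ± 0.17 (adjusted p = 1.48e-06). Per length, Col3a1 was above Col1a1 in each of the 6 livers, by a ratio of 2.76 ± 0.61 in R135W and 2.95 ± 0.08 in WT (SD, n = 3 each). In muscle the ratio was 0.929 ± 0.032 in R135W and 1.11 ± 0.38 in WT, with WT values on both sides of 1.

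Of the basement membrane genes, Col4a1, Col4a2 and Col15a1 were lower in liver, while Col4a3, Col4a4 and Col4a5 did not pass (edgeR adjusted p = 0.493, 0.212 and 0.963). Col4a1 and Col4a2 differed by -2.19 ± 0.14 and -2.21 ± 0.12 on the log2 scale (SE, edgeR adjusted p = 4.29e-07 and 1.45e-07). Type VI collagen forms beaded filaments around muscle fibres, and its chains Col6a1, Col6a2 and Col6a3 differed by -2.20 ± 0.18, -3.14 ± 0.20 and -1.95 ± 0.18 (edgeR adjusted p at most 5.39e-06), whereas Col6a5 did not pass (-0.52 ± 0.68, edgeR adjusted p = 0.493). Col15a1, a basement membrane collagen of muscle and vessels, differed by -2.43 ± 0.23 (edgeR adjusted p = 7.45e-06).

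Some collagens had no counts in any WT liver. Col22a1, a collagen of the myotendinous junction, had 5.70, 6.17 and 9.23 FPKM in WT muscles and no count in WT livers, so it was at least 970.3-fold lower in WT liver, taking 3 counts over the group as the floor (counting error only). By the same floor Col11a1, Col26a1, Col2a1 and Col9a2 were at least 111.5-fold, 27.88-fold, 11.04-fold and 7.551-fold lower in WT liver. In R135W livers Col22a1 had 0.00605, 0 and 0.0148 FPKM, and Col11a1, Col26a1 and Col2a1 again had no count. Col6a4 was at or under the floor in both WT tissues.

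The 7 tested genes that did not pass in the tissue comparison were Col5a3, Col20a1, Col16a1, Col4a3, Col4a4, Col4a5 and Col6a5. Col5a3, a type V chain, was near the threshold (-0.73 ± 0.31, edgeR adjusted p = 0.0511). WT liver animal 6 had 8.19 FPKM of it, against 3.71 and 3.19 FPKM in WT livers 8 and 9, and without that library the log2 difference was -1.28 with an adjusted p of 1.11e-05. Members tested only because they are high in one tissue had to differ, so these counts describe the genes tested and are not a property of the family.

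**Figure D1:**
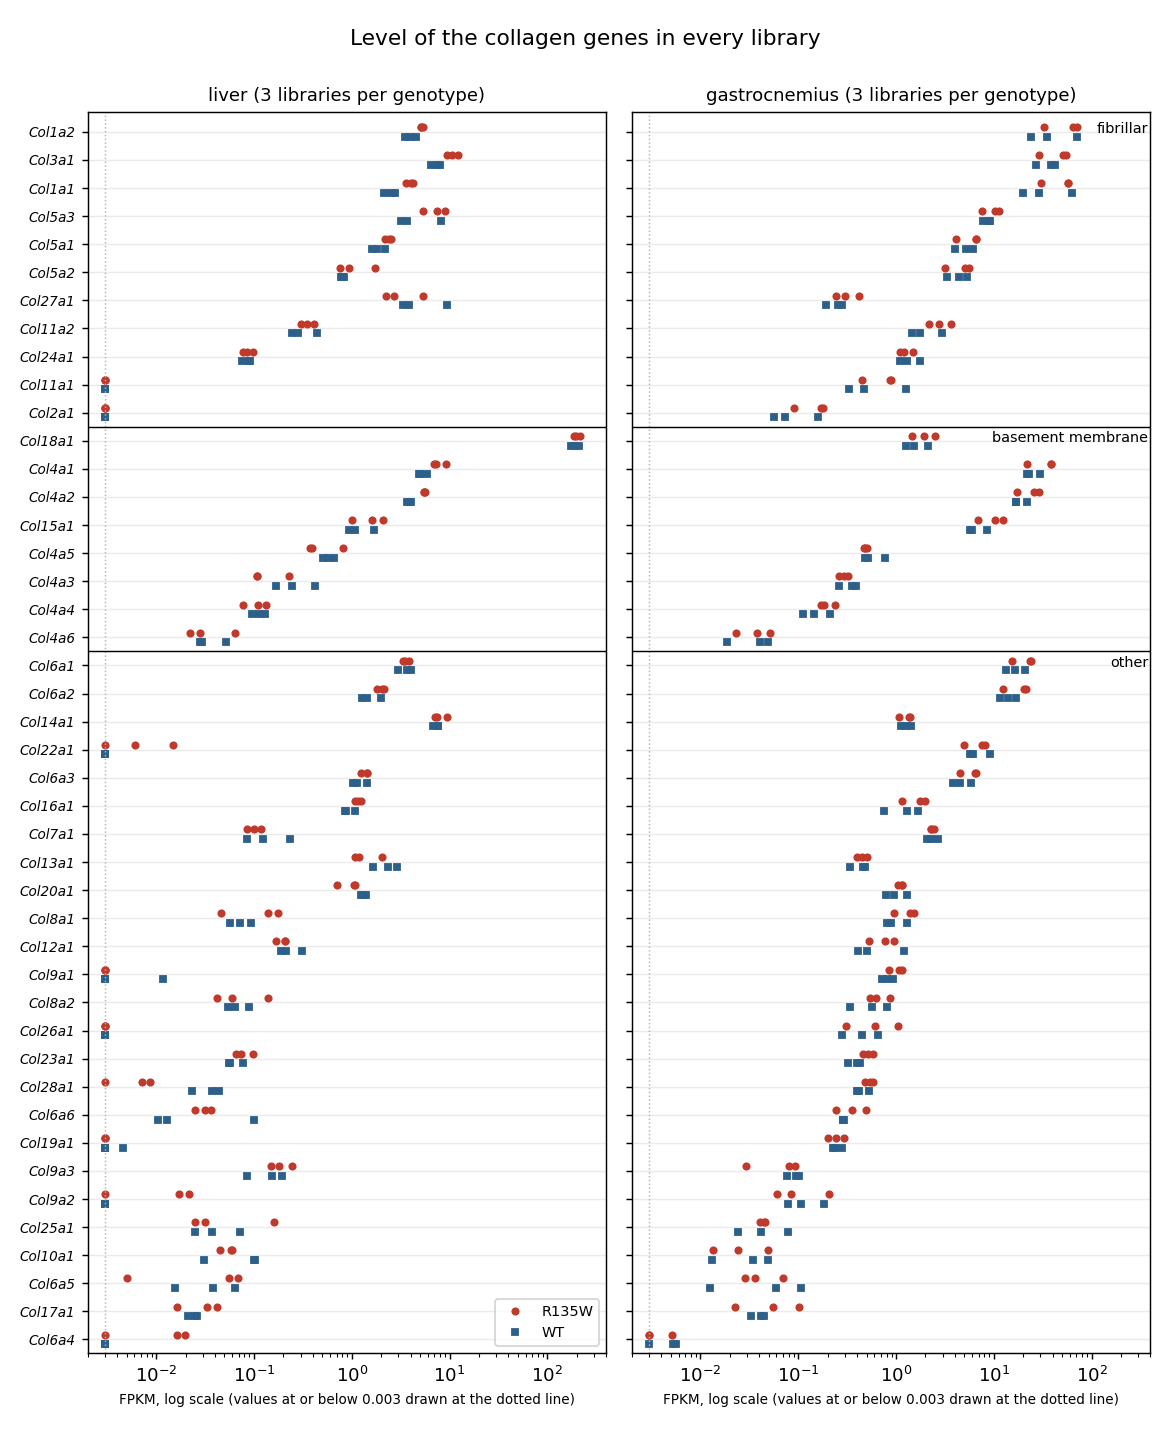
Level of each of the 44 collagen genes in every library, in FPKM on a log scale (x axis), with liver in the left panel and gastrocnemius in the right; circles are R135W and squares WT, and horizontal lines separate fibrillar, basement membrane and other collagens. Col18a1 stands near 200 FPKM in liver, and most other collagens lie further right in gastrocnemius; values of 0.003 or less, zeros included, are drawn at the dotted line.

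The first genotype comparison was R135W against WT in liver. The 5 main chains of types I, III and IV had log2 differences between 0.38 and 0.67 in R135W livers, whereas that of Col18a1, the most abundant collagen, was 0.05 ± 0.14 (SE, edgeR adjusted p = 0.887). At an adjusted p under 0.05, 2 of the 29 collagen genes tested were called, Col4a2 and Col1a1, both higher, where 3.28% of all 13935 genes tested were called and 2.76% were called higher. In bulk tissue a larger number of cells of one type and more RNA per cell cannot be told apart.

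Col4a2 had 5.45, 5.47 and 5.63 FPKM in R135W livers 5, 7 and 12 and 3.93, 3.70 and 4.02 FPKM in WT livers 6, 8 and 9. The lowest R135W liver was above the highest WT liver, and the spread within each genotype was small. The log2 difference was 0.50 ± 0.10 (SE, edgeR adjusted p = 0.0352). Col4a1, its partner chain, had 6.88, 7.31 and 9.11 FPKM in R135W livers and 5.89, 5.05 and 4.88 FPKM in WT livers. These values were also fully apart, but the difference of 0.55 ± 0.14 did not pass (edgeR adjusted p = 0.0766).

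Col1a1 had 4.05, 4.24 and 3.59 FPKM in R135W livers and 2.79, 2.54 and 2.13 FPKM in WT livers. Its log2 difference was 0.67 ± 0.14 (SE, edgeR adjusted p = 0.0455), with all R135W livers above all WT livers. Col3a1, the most abundant fibrillar chain in liver, had 10.6, 9.46 and 12.3 FPKM in R135W livers and 8.00, 7.52 and 6.44 FPKM in WT livers (0.56 ± 0.13, edgeR adjusted p = 0.0649). Col1a2 had 5.07, 5.12 and 5.40 FPKM in R135W livers and 4.49, 3.91 and 3.52 FPKM in WT livers (0.38 ± 0.13, edgeR adjusted p = 0.162). The Col3a1 and Col1a2 libraries were fully apart by genotype as well, without passing the adjusted threshold.

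The calls in liver depended on the test and on the libraries. DESeq2 called 4 collagen genes, Col3a1 and Col4a1 in addition (DESeq2 adjusted p = 0.0202 and 0.0278). With any 1 of the 6 livers left out neither Col1a1 nor Col4a2 passed, the edgeR adjusted p then lying between 0.0533 and 0.153 for Col1a1 and between 0.0701 and 0.127 for Col4a2, and neither passed with age as a covariate (0.0816 and 0.0824) or in 1 fit of all 12 libraries (0.296 and 0.0766). Over those refits the log2 difference stayed between 0.56 and 0.76 for Col1a1 and between 0.46 and 0.52 for Col4a2.

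**Figure D2:**
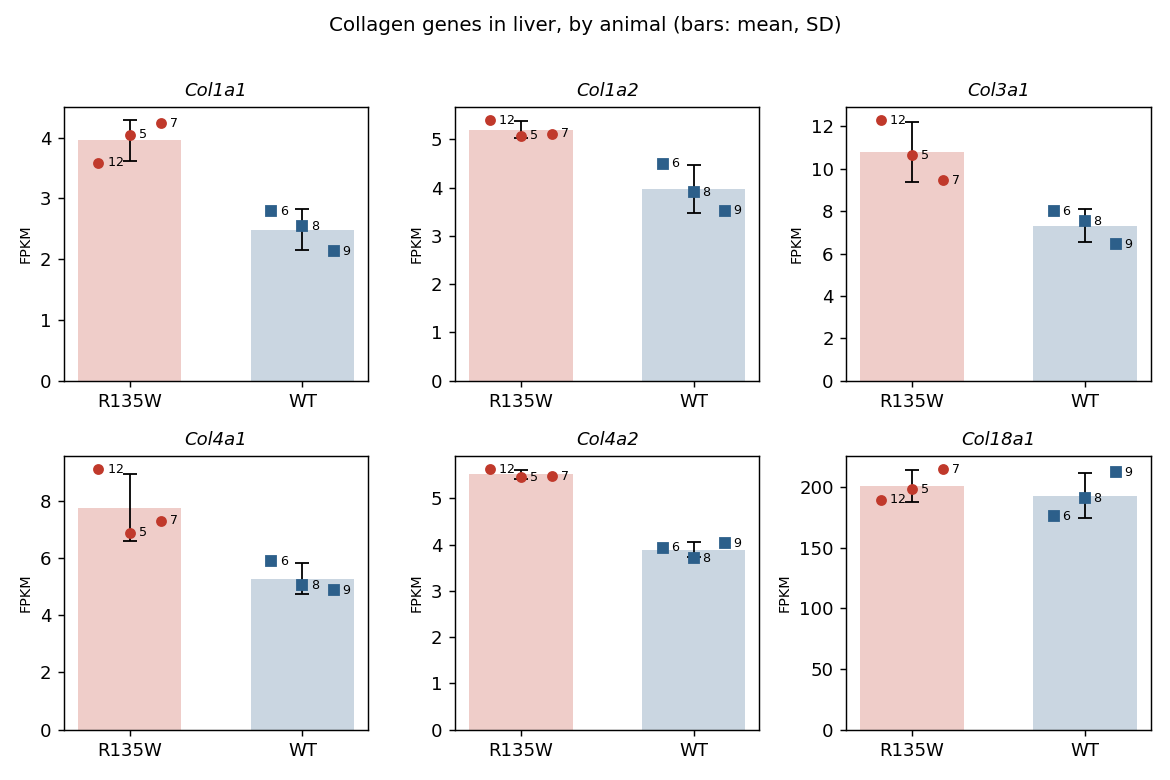
FPKM of 6 collagen genes in liver (y axes start at 0) by genotype (x axis), 1 point per animal with its number, bars at the mean and error bars of 1 SD (n = 3). For Col1a1, Col1a2, Col3a1, Col4a1 and Col4a2 every R135W liver lies above every WT liver, whereas the genotypes overlap for Col18a1.

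Col4a1 and Col4a2 lie head to head on chromosome 8 (mm10), Col4a1 on the minus strand at 11198423-11312826 and Col4a2 on the plus strand at 11312829-11449287 in the annotation of the count files, with 2 bases between them. Per length, Col4a1 exceeded Col4a2 by a ratio of 1.41 ± 0.19 in R135W livers, 1.36 ± 0.14 in WT livers, 1.37 ± 0.10 in R135W muscles and 1.34 ± 0.03 in WT muscles (SD, n = 3 each), so the ratio was alike although the level of both chains differed between the tissues by more than 2 units on the log2 scale. The pair's start regions are printed with those of Col1a2 and Col3a1, fibrillar chains that also had every R135W liver above every WT liver. Each runs 5′ to 3′ on the gene's own strand from 250 bases before the RefSeq start (GRCm38.p6) to 50 bases after it, with capitals marking a CCAAT box (CCAAT), a GC box (GGGCGG) or a TATA box (TATAAA) on either strand. The windows are chr8:11312777-11313076 for Col4a1 (minus strand), chr8:11312555-11312854 for Col4a2, chr6:4505368-4505667 for Col1a2 and chr1:45311288-45311587 for Col3a1 (all plus strand). The Col1a2 window ends before that gene's start in the annotation of the count files (4505697), so its motifs lie upstream of the counted gene.
Col4a1: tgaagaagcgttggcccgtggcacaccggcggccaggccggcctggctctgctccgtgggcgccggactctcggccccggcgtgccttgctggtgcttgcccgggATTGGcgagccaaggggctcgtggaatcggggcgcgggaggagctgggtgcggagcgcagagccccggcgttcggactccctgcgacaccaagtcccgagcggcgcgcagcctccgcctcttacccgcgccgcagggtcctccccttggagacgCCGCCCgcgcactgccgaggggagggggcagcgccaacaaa
Col4a2: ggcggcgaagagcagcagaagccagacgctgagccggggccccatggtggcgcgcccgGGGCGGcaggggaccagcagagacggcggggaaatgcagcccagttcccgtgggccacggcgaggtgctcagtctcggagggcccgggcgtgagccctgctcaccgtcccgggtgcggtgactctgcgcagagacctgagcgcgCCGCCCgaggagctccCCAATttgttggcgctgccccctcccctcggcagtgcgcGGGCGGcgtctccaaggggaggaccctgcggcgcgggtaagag
Col1a2: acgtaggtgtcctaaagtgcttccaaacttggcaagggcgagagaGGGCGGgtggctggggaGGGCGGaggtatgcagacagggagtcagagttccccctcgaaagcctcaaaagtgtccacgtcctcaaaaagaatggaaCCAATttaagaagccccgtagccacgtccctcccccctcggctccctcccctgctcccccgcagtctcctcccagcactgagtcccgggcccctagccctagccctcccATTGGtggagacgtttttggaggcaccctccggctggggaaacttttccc
Col3a1: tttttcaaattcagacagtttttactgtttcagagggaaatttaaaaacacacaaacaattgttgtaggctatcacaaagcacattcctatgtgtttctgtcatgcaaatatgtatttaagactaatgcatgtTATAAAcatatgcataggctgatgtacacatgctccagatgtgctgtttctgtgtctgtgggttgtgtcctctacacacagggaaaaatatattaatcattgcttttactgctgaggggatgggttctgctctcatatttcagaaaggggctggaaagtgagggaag

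The Col4a1 and Col4a2 windows shared 78 bases, read from opposite strands, and the GC box at 11312812-11312817 stood in both. By their RefSeq starts (11312826 and 11312805) the genes overlap by 22 bases, and that GC box lies within the overlap. Col4a1 held 1 CCAAT box and 1 GC box, Col4a2 held 1 CCAAT box and 3 GC boxes, and neither held TATAAA. Col1a2 held 2 of each of the first 2 motifs, while Col3a1 held TATAAA and neither of the others. RefSeq windows were found for 35 of the 44 collagen genes (38 windows), with none for Col1a1. GGGCGG was in 60.5% of the collagen windows and in 35.7% of all 32851 windows, CCAAT in 34.2% and 37.4%, and TATAAA in 13.2% and 13.6%. A match of letters is not a binding site, and the motifs do not overlap one another in the printed windows. The bearing of these motifs on the collagen levels was not tested.

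Among the other fibrillar collagens in liver, Col5a1, a type V chain that starts fibrils, had every R135W liver above every WT liver (0.33 ± 0.14, SE, edgeR adjusted p = 0.276). Col5a3 had 5.41, 7.43 and 8.97 FPKM in R135W livers and 8.19, 3.71 and 3.19 FPKM in WT livers, overlapping through WT animal 6 (0.52 ± 0.34, edgeR adjusted p = 0.473). Col27a1 was the only fibrillar collagen with a negative estimate (-0.68 ± 0.44, edgeR adjusted p = 0.467), and the same WT animal held its highest value, 9.35 FPKM. The median log2 difference was 0.38 over the 9 fibrillar genes tested, 8 of them positive, 0.05 over the 7 basement membrane genes and 0.18 over the 13 others. Over the 29 collagen genes tested it was 0.19, against -0.01 over all genes tested. That median was 0.34 without WT liver 6 and 0.10 without R135W liver 12.

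Among the non-fibrillar collagens in liver, Col14a1 had 7.04, 7.47 and 9.40 FPKM in R135W livers and 7.64, 7.69 and 6.82 FPKM in WT livers. Col6a1 had 3.34, 3.47 and 3.87 FPKM in R135W livers and 4.03, 3.71 and 3.00 FPKM in WT livers. The genotypes overlapped for both. Col6a2 and Col6a3 had log2 differences of 0.35 ± 0.19 and 0.19 ± 0.15 (SE, edgeR adjusted p = 0.403 and 0.57). Col13a1 had 2.03, 1.18 and 1.07 FPKM in R135W livers and 2.87, 1.65 and 2.34 FPKM in WT livers (-0.69 ± 0.29, edgeR adjusted p = 0.266). Col20a1 was the only tested collagen with every R135W liver below every WT liver (-0.50 ± 0.20, edgeR adjusted p = 0.245).

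At an unadjusted p under 0.05, 8 of the 29 collagen genes stood in the liver comparison (27.6%), against 17.6% of all genes tested. Of the same 29, every R135W liver was above every WT liver for 7 (24.1%), against 14.1% of all genes tested, and below every WT liver for 1 (3.45%), against 9.64%. The 7 were Col4a2, Col1a1, Col3a1, Col4a1, Col1a2, Col5a1 and Col16a1.

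The cell types that make or accompany collagen were read from marker lists. Macrophage markers moved with genotype in liver: 10 of 11 passed, each higher in R135W. Their summed level was between 904 and 958 CPM in R135W livers and between 321 and 523 CPM in WT livers. Examples were Emr1, which encodes F4/80 (1.53 ± 0.17, SE, edgeR adjusted p = 0.00671), Marco, a scavenger receptor of Kupffer cells (2.12 ± 0.24, 0.00671), Cd68 (1.21 ± 0.15, 0.0082) and Cd5l (1.48 ± 0.18, 0.00831), the last number of each bracket being that test's adjusted p. Of the 10 hepatic stellate cell markers none passed, and 5 had positive estimates. Their sum was between 342 and 352 CPM in R135W livers and between 296 and 356 CPM in WT livers, most of it Ecm1. Ngfr came near the threshold (0.76 ± 0.17, SE, edgeR adjusted p = 0.0539). Ngfr and Colec11 (0.31 ± 0.13, edgeR adjusted p = 0.261) had every R135W liver above every WT liver. None of 11 tested fibroblast markers passed, with a median of -0.12 and 3 positive estimates. Their sum was between 315 and 330 CPM in R135W livers and between 328 and 384 CPM in WT livers, most of it Dcn and Dpp4. Entpd2 (0.59 ± 0.21, SE, edgeR adjusted p = 0.199) and Thy1 (0.61 ± 0.27, 0.284), of the same list, had every R135W liver above every WT liver. None of 5 tested activated myofibroblast markers passed, their sum being between 56.6 and 95.6 CPM in R135W livers and between 56.0 and 93.8 CPM in WT livers. Most of that sum was Spp1, which bile duct cells also express. Timp1, too low to be tested, had 0.222, 0.328 and 0.241 CPM in R135W livers and 0.0926, 0.0975 and 0.119 CPM in WT livers, and Lox, which cross-links collagen, had 0.927, 0.656 and 0.754 CPM in R135W livers and 0.602, 0.585 and 0.514 CPM in WT livers (0.46 ± 0.30, SE, edgeR adjusted p = 0.468). Both had every R135W liver above every WT liver, and Cthrc1 was at most 0.0937 CPM in any liver. None of the 9 endothelial or the 7 sinusoidal endothelial markers passed. The summed hepatocyte markers given above were lower in every R135W liver than in any WT liver, but none of the 5 passed. Most of that sum was Alb (-0.27 ± 0.19, SE, edgeR adjusted p = 0.5). Alb and Serpina1a were lower in every R135W liver, while Apoa1, Ttr and Cps1 overlapped between the genotypes. The part of any of these cell types in the collagen values was not tested.

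The second comparison was R135W against WT in gastrocnemius. No collagen gene passed, 0 of the 37 tested, where 0.875% of all 13826 genes tested were called. DESeq2 also called 0 of them, and 2 stood at an unadjusted p under 0.05 in the edgeR fit (5.41%), against 11.5% of all genes tested. Those were Col15a1 (0.54 ± 0.21, SE, edgeR adjusted p = 0.346) and the transmembrane Col23a1 (0.41 ± 0.17, edgeR adjusted p = 0.377). Col23a1 was the only collagen gene with every R135W muscle above every WT muscle (2.7% of those tested, against 8.35% of all genes tested), and none had every R135W muscle below every WT muscle (7.86% of all genes tested).

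Col15a1 had 6.85, 10.3 and 12.5 FPKM in R135W muscles 5, 7 and 12 and 5.97, 5.76 and 8.59 FPKM in WT muscles 6, 8 and 9. Col4a1 had 22.1, 38.0 and 38.8 FPKM in R135W muscles and 22.9, 21.8 and 29.5 FPKM in WT muscles (0.41 ± 0.19, SE, edgeR adjusted p = 0.457). Col4a2 had 17.3, 25.7 and 28.7 FPKM in R135W muscles and 16.9, 16.7 and 21.7 FPKM in WT muscles (0.37 ± 0.17, edgeR adjusted p = 0.437). In each of these genes the R135W muscle of animal 5 lay within the WT range and the other 2 R135W muscles lay above it.

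The type I chains overlapped completely between the genotypes in muscle. Col1a1 had 30.4, 58.0 and 57.7 FPKM in R135W muscles and 29.3, 20.1 and 63.3 FPKM in WT muscles (0.36 ± 0.37, SE, edgeR adjusted p = 0.78). Col1a2 had 32.8, 71.7 and 64.7 FPKM in R135W muscles and 34.7, 24.0 and 71.6 FPKM in WT muscles (0.37 ± 0.38, edgeR adjusted p = 0.778). In both genes animals 7, 12 and 9 were high and animals 5, 6 and 8 were low, whatever the genotype. Col3a1 had 29.0, 54.4 and 51.5 FPKM in R135W muscles and 38.3, 27.3 and 42.6 FPKM in WT muscles (0.31 ± 0.22, edgeR adjusted p = 0.647).

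Col6a1 had 15.2, 23.4 and 24.0 FPKM in R135W muscles and 16.4, 13.3 and 20.9 FPKM in WT muscles, and Col6a2 had 12.5, 20.3 and 21.4 FPKM against 13.9, 11.5 and 16.9 FPKM. Their ratio per length was 1.16 ± 0.05 in R135W muscles and 1.19 ± 0.04 in WT muscles (SD, n = 3 each), so the chains kept step while their level varied. Col6a3 had 4.49, 6.62 and 6.39 FPKM in R135W muscles and 4.56, 3.84 and 5.84 FPKM in WT muscles. The 3 log2 differences lay between 0.29 and 0.35, with edgeR adjusted p between 0.533 and 0.599. Col22a1 had 4.94, 7.55 and 8.04 FPKM in R135W muscles and 5.70, 6.17 and 9.23 FPKM in WT muscles (-0.05 ± 0.20, edgeR adjusted p = 0.963).

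The estimate was positive for 29 of the 37 collagen genes tested in muscle and negative for 8, with a median of 0.29 against -0.00 over all genes tested. That median depended on which animals were in the fit: it was 0.10 without WT muscle 8, 0.16 without R135W muscle 7, 0.19 without R135W muscle 12 and 0.47 without WT muscle 9. All 9 endothelial markers had positive estimates in muscle beside Col4a1, Col4a2 and Col15a1. At an unadjusted p under 0.05, 7 of the 9 stood, against 11.5% of all genes tested. The 9 markers summed to between 444 and 501 CPM in R135W muscles and between 374 and 435 CPM in WT muscles. Kdr, the main receptor for vascular endothelial growth factor, passed, with 52.4, 45.3 and 50.3 CPM in R135W muscles and 31.0, 28.0 and 27.6 CPM in WT muscles (0.77 ± 0.08, SE, edgeR adjusted p = 0.00918; 0.0526 without WT muscle 8). The part of endothelium in the collagen values was not tested.

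**Figure D3:**
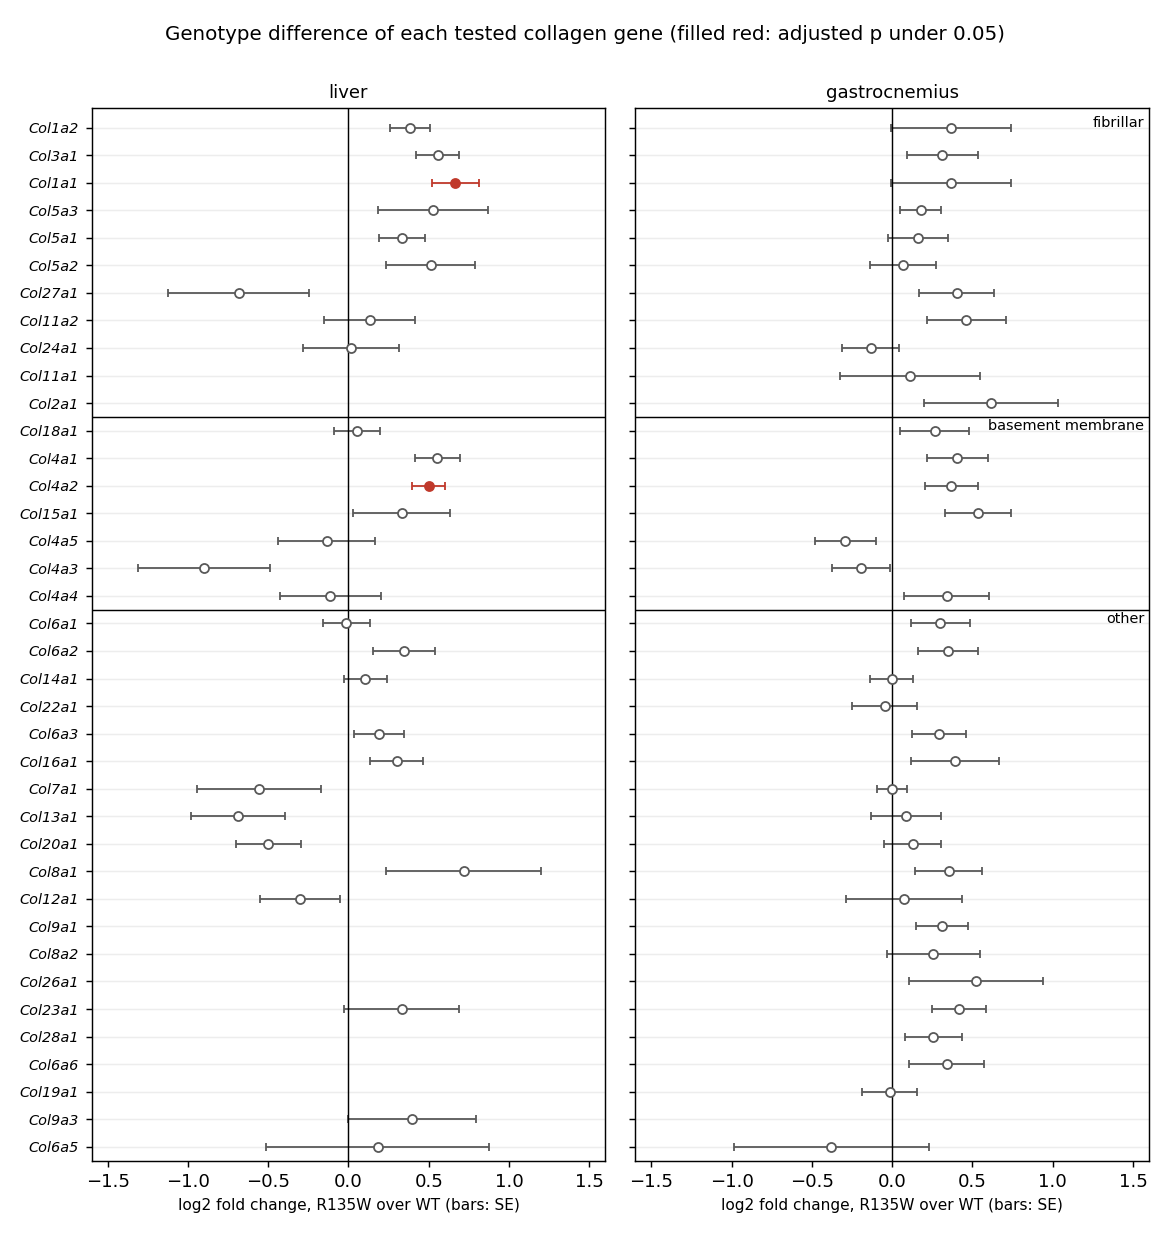
Log2 fold change of R135W over WT (x axis, bars of 1 SE) for each collagen gene tested, in liver (left) and gastrocnemius (right); filled red points have an adjusted p under 0.05. Col1a1 and Col4a2 are filled in liver and none is filled in gastrocnemius, where the SE of Col1a1 is 0.37, against 0.14 in liver.

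A call in liver and none in muscle does not show that the tissues differ, so the difference of the R135W effect (liver minus gastrocnemius) was tested across the 12 libraries. None of the 39 collagen genes tested passed, where 0.13% of all 15414 genes tested did. Those 39 include Col2a1, Col11a1 and Col26a1, which had no count in any liver and could not pass (SE 1222, 394 and 1392). Col9a1, Col19a1 and Col22a1, also among the 39, had at most 3 counts in any liver. DESeq2 also called 0, and 2 stood at an unadjusted p under 0.05 (5.13%, against 9.95% of all genes tested). For Col1a1 the difference was 0.29 ± 0.49 (SE, edgeR adjusted p = 0.905) and for Col4a2 it was 0.12 ± 0.22 (edgeR adjusted p = 0.91), estimates smaller than their errors. The 2 at an unadjusted p under 0.05 were Col28a1 (-2.65 ± 0.68, edgeR adjusted p = 0.201) and Col20a1 (-0.64 ± 0.28, edgeR adjusted p = 0.472). Col28a1, found with Schwann cells in mice, had 0.00877, 0 and 0.00713 FPKM in R135W livers and 0.0438, 0.0230 and 0.0374 FPKM in WT livers, and 0.488, 0.584 and 0.544 FPKM in R135W muscles against 0.422, 0.396 and 0.530 FPKM in WT muscles. Its liver values rest on 1, 0 and 1 counts in R135W and 4, 2 and 4 counts in WT, too few to be tested within liver.

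Within type I collagen the chains were not in the same proportion everywhere. Col1a1 over Col1a2, per length, was 0.799, 0.828 and 0.664 in R135W livers and 0.621, 0.651 and 0.605 in WT livers. All R135W livers were above all WT livers, by 0.764 ± 0.087 against 0.626 ± 0.023 (SD, n = 3 each; with 3 against 3 an exact permutation test cannot go below 0.1). In muscle the ratio was 0.875 ± 0.060 in R135W animals and 0.855 ± 0.026 in WT animals, with overlap.

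The muscle values were also set against the animals' ages, because the 3 muscles low in Col1a1 and Col1a2 came from the animals of 9.0 weeks (5, 6 and 8) and the high ones from those of 7.4 weeks (7 and 9) and 8.6 weeks (12). The fit of genotype plus age, added after these values were seen, gave no collagen gene at an adjusted p under 0.05 among 37 in muscle, where 1 of all 13826 genes (0.00723%) passed. At an unadjusted p under 0.05, 21 of the 37 were lower with age (56.8%), against 4.43% of all genes tested, and 2 were higher (5.41%, against 2.91%). The 21 include Col1a1 and Col1a2, and the count describes the same 6 muscles in which the pattern was seen.

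Col12a1, a fibril-associated collagen of tendon and muscle fascia, had 0.532, 0.953 and 0.769 FPKM in R135W muscles 5, 7 and 12 and 0.511, 0.413 and 1.21 FPKM in WT muscles 6, 8 and 9. Its slope was -0.69 ± 0.11 log2 units per week (SE). Col11a1, a fibrillar collagen that limits fibril width, had a slope of -0.78 ± 0.17. Col1a2 and Col1a1, whose values prompted the fit, had slopes of -0.69 and -0.67 per week. All these slopes come from the 6 muscles in which the pattern was first seen, so they restate it and are given without a test. By class, 9 of 11 fibrillar, 3 of 7 basement membrane and 9 of 19 other collagen genes tested were lower with age at an unadjusted p under 0.05. Col6a5 and Col14a1 were the 2 that were higher. Col6a5 rests on few counts: 8, 7 and 17 in R135W muscles 5, 7 and 12 and 24, 15 and 3 in WT muscles 6, 8 and 9.

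The count of 21 rested on few animals: it was 5 without WT muscle 9, 12 without WT muscle 8 and 13 without R135W muscle 5, and between 18 and 24 without any other library. The same fit in liver gave 0 of 29 collagen genes lower with age and 0 higher at an unadjusted p under 0.05, where 1.2% and 0.818% of all genes tested were. Only 3 ages were sampled, so age cannot be told apart from anything else shared by the animals of 1 age, such as a litter or a day of dissection.

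**Figure D4:**
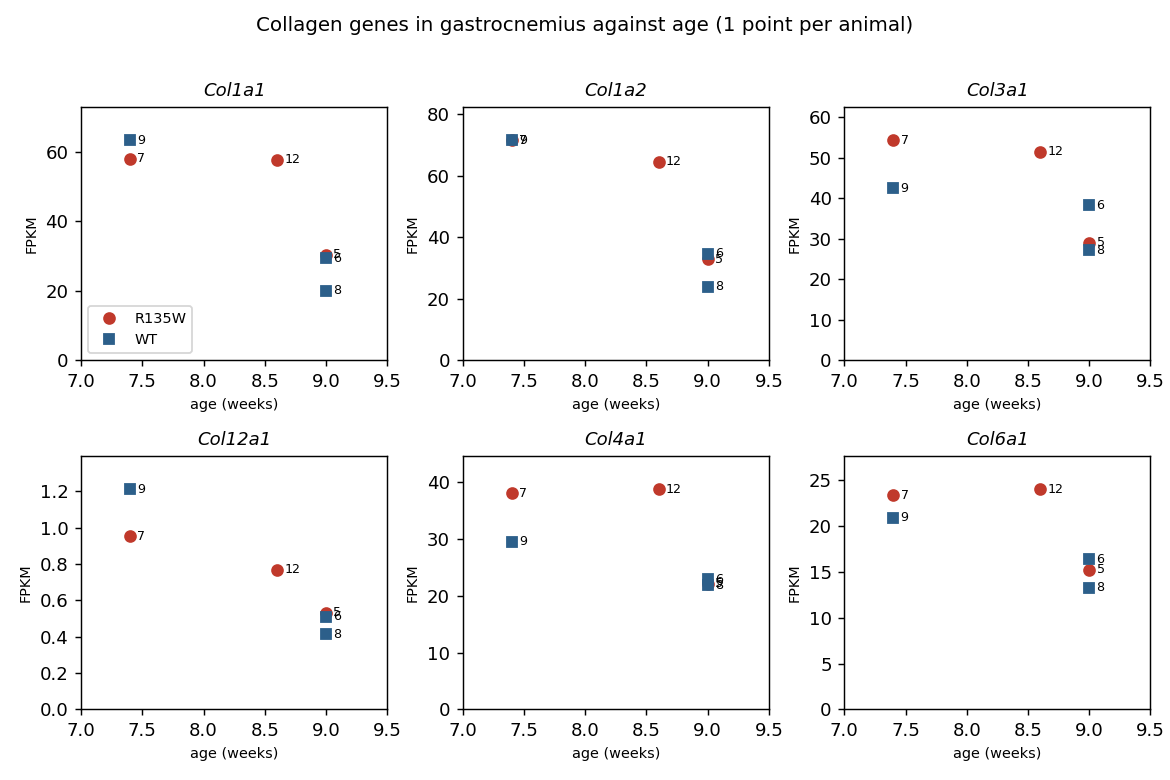
FPKM of 6 collagen genes in gastrocnemius (y axes start at 0) against the age of the animal in weeks (x axis), 1 numbered point per animal, circles R135W and squares WT. At 9.0 weeks R135W animal 5 lies with WT animals 6 and 8, and at 7.4 weeks R135W animal 7 and WT animal 9 lie higher.

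Of the 7 tenocyte and myotendinous junction markers, 4 were lower with age in muscle at an unadjusted p under 0.05 (4.43% of all genes tested) and none at an adjusted p under 0.05. Other marker lists moved too: 4 of 6 Schwann cell and perineurium markers were higher with age at that unadjusted threshold (2.91% of all genes tested). Of 9 endothelial markers, 3 were lower. These counts describe the same 6 muscles in which the collagen pattern was seen. Tnmd, which encodes tenomodulin of tendon cells, had 4.93, 11.7 and 9.05 CPM in R135W muscles 5, 7 and 12 and 5.03, 3.35 and 13.2 CPM in WT muscles 6, 8 and 9. Its slope was -0.86 ± 0.14 per week (SE), given without a test for the same reason as the collagen slopes. Thbs4, a thrombospondin of the myotendinous junction, had 50.8, 80.0 and 75.3 CPM in R135W muscles and 55.2, 42.9 and 99.3 CPM in WT muscles. Tppp3, another of the 7, had 43.8, 46.6 and 53.0 CPM in R135W muscles and 39.3, 38.5 and 32.8 CPM in WT muscles, with WT animal 9 lowest. The 7 markers summed to between 206 and 262 CPM in R135W muscles and between 161 and 300 CPM in WT muscles. Of 12 fibroblast markers 1 was lower with age at an unadjusted p under 0.05, Eln (elastin), with 33.7, 60.6 and 47.0 CPM in R135W muscles and 47.3, 46.6 and 60.4 CPM in WT muscles. Dcn (decorin), of the same list, had 216, 221 and 207 CPM in R135W muscles and 221, 215 and 257 CPM in WT muscles. Tnmd had no count in any liver. How much the share of tendon, fibroblasts, Schwann cells or endothelium in each muscle sample bore on the collagen values was not tested.

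**Figure D5:**
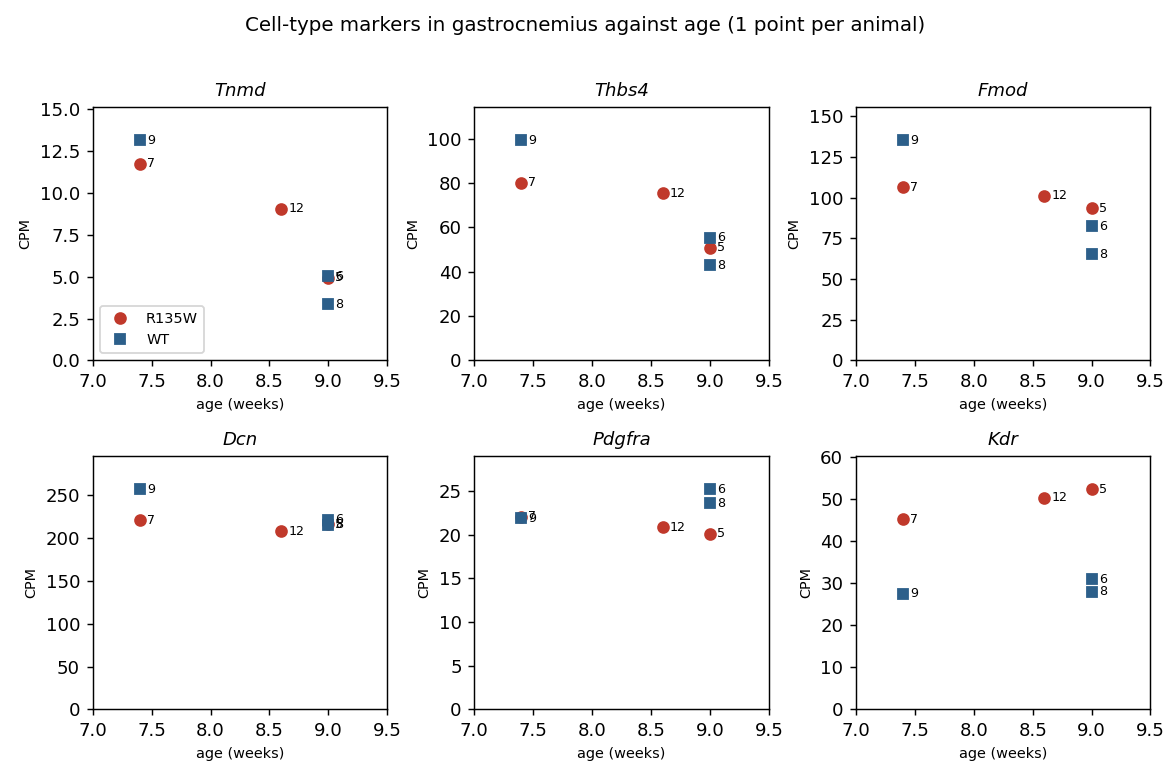
CPM of tendon markers (Tnmd, Thbs4, Fmod), fibroblast markers (Dcn, Pdgfra) and the endothelial gene Kdr in gastrocnemius (y axes start at 0) against the age of the animal in weeks (x axis), 1 numbered point per animal, circles R135W and squares WT. Tnmd and Thbs4 are highest in WT animal 9 and R135W animal 7, and Kdr separates by genotype, from 45.3 to 52.4 CPM in R135W and from 27.6 to 31.0 CPM in WT.

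Genes that fold, process, cross-link, bind or degrade collagen, with those of basement membrane and of TGF-beta signalling, were called at about the share of all genes. In liver 3 of 91 tested passed (3.3%, against 3.28% of all genes tested), and in muscle 1 of 94 (1.06%, against 0.875%). In liver, none of 17 tested folding and modification genes passed, Crtap (0.46 ± 0.15, SE, edgeR adjusted p = 0.15), part of the prolyl 3-hydroxylation complex, and P4hb (-0.41 ± 0.15, 0.196), a subunit of prolyl 4-hydroxylase, being nearest. Of 12 processing and cross-linking genes 1 passed: Tgm2, a transglutaminase, had 184, 176 and 197 CPM in R135W livers and 134.7, 122 and 120 CPM in WT livers (0.56 ± 0.11, edgeR adjusted p = 0.035). Of 7 collagen receptors 1 passed: Lair1, an inhibitory collagen receptor of leukocytes, had 4.60, 4.31 and 5.27 CPM in R135W livers and 2.31, 2.92 and 2.61 CPM in WT livers (0.85 ± 0.18, edgeR adjusted p = 0.0409).

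Tgfb1, the cytokine that induces fibrillar collagens, was the only 1 of 18 genes of TGF-beta signalling that passed in liver. It had 15.2, 11.9 and 13.1 CPM in R135W livers and 8.98, 6.48 and 6.96 CPM in WT livers (0.84 ± 0.17, SE, edgeR adjusted p = 0.035). Estimates were positive for 15 of the 18 (median 0.30), and 5 stood at an unadjusted p under 0.05, against 17.6% of all genes tested. Of these, Tgfbi, Tgfbr2, Ltbp4 and Tgfb3 also had every R135W liver above every WT liver. In each of Tgm2, Lair1 and Tgfb1 all R135W livers were above all WT livers. Tgm2 and Lair1 no longer passed with any 1 liver left out, and Tgfb1 passed in 1 of those 6 refits, the one without WT liver 6 (edgeR adjusted p = 0.0289).

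None of the fibril organisers, laminins or degradation genes passed in liver. Postn (periostin) and Thbs1 (thrombospondin 1) came nearest among 10 organisers, at 0.76 ± 0.26 and 1.06 ± 0.38 (SE, edgeR adjusted p = 0.176 and 0.193). Agrn (agrin, 0.41 ± 0.12, 0.111) and Lamb3 (a laminin chain, -0.74 ± 0.25, 0.172) came nearest among 15 laminins and other basement membrane genes. Among 12 degradation genes, Mmp12, the macrophage metalloelastase, had 4.34, 0.983 and 0.543 CPM in R135W livers and 0.0463, 0.244 and 0.0790 CPM in WT livers (edgeR adjusted p = 0.0705), and Adamts1 had a difference of 0.43 ± 0.14 (0.144). All R135W livers were above all WT livers for Mmp12, R135W animal 5 being far above the other 2.

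In muscle 1 gene of these lists passed. Mmp14, a membrane-bound collagenase and 1 of 14 tested degradation genes, had 12.3, 10.98 and 13.2 CPM in R135W muscles and 8.19, 7.10 and 7.70 CPM in WT muscles (0.66 ± 0.11, SE, edgeR adjusted p = 0.0306). All R135W muscles were above all WT muscles, though the gene did not pass with any 1 muscle left out (edgeR adjusted p between 0.0577 and 0.163). None passed among 17 folding genes (Mia3, -0.19 ± 0.06, 0.268, and Fkbp10, 0.43 ± 0.15, 0.295, were nearest), 13 processing genes (Loxl1, 0.39 ± 0.15, 0.329, and Adamts14, 0.54 ± 0.24, 0.434) or 8 receptors (Itga1, 0.34 ± 0.10, 0.219, and Ddr1, 0.21 ± 0.15, 0.643). Nor did any of 10 organisers (Lum, 0.19 ± 0.12, 0.588, and Postn, 0.49 ± 0.33, 0.63), 14 laminins and other basement membrane genes (Agrn, 0.52 ± 0.11, 0.0721, and Nid2, 0.45 ± 0.15, 0.284) or 18 TGF-beta genes (Tgfbr3, -0.22 ± 0.08, 0.321, and Tgfbr2, 0.16 ± 0.06, 0.385). In these brackets the numbers are the log2 difference, its SE and the edgeR adjusted p.

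The least expressed collagens were not tested. Col10a1, Col17a1, Col4a6, Col6a4 and Col9a2 were below the filter on low counts in all comparisons, with 46, 65, 76, 11 and 54 counts over the 12 libraries. Besides these, Col11a1, Col19a1, Col22a1, Col25a1, Col26a1, Col28a1, Col2a1, Col6a6, Col8a2 and Col9a1 were not tested in liver, Col25a1 and Col9a3 were not tested in gastrocnemius, and Col25a1, Col2a1 and Col9a3 were not tested between the tissues. Col10a1 is known from hypertrophic cartilage and Col17a1 from skin, and differences in these genes were not tested. Counting ignored the strand and gave a read to every gene it overlapped, so the 8.05% of Col9a3 exon bases shared with Tcfl5 and the 0.391% of Col7a1 shared with Mir711 may hold reads of those genes; no other collagen gene shared exon bases with another gene.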

How the data were processed

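Poly(A) RNA libraries were sequenced as paired reads, per the labels' protocols. The authors deposited whole-number counts per gene: STAR 2.4.0 and featureCounts 1.5.2 are named in the submitters' processing notes, and per the file headers exons of an mm10 annotation were counted by gene for primary alignments and read pairs, with reads that overlap several genes given to each and no strand option. From these counts genotypes were compared within each tissue, the tissues within WT, and the R135W effect between tissues over all 12 libraries. The test was edgeR 4.0.16's quasi-likelihood test in R 4.3.3 with TMM scaling, filterByExpr and Benjamini-Hochberg adjustment over all genes tested, called at 0.05. FPKM and CPM use TMM factors over all 12 libraries.

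The alternatives were RLE size factors, DESeq2 1.42.0, no filter, a filter of 1 CPM in 3 libraries, age in weeks added to the model, 1 model over the 12 libraries, the animal as a replicate block and leaving out each library. The script was checked on simulated counts. Liver and muscle libraries with the same number come from the same animal per the labels, so the animal pairs them. Their deviations from the group means correlated at 0.00317 to 0.0692 over all genes tested and at -0.205 to 0.252 over the 39 collagen genes tested.

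The collagen genes, their classes, the gene lists and the markers were chosen with earlier results of these data known. Named genes were the 3 collagens with the highest mean FPKM per class and tissue, the main chains of types I, III, IV and VI, every collagen past a genotype test, and of each other list up to 4 genes that passed or the 2 nearest. Col5a1, Col12a1, Col16a1, Col20a1, Col23a1, Col27a1, Col28a1 and the low genes were named after their values were seen. The labels name separate animals, so p-values measure the spread between animals, and intervals for counts cover counting error only.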

Additional observations from a re-analysis of the deposited data

How the results depend on the processing

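With 3 animals a group, the collagen results in liver depended on the fit. The count of collagen genes called in liver, 2 in the main analysis, was 4 with DESeq2 (Col3a1 and Col4a1 in addition, adjusted p = 0.0202 and 0.0278), 0 with age as a covariate, 0 in the fit of all 12 libraries and 0 to 0 over the 6 refits that left out 1 library; the cause was not tested, except that a refit without a library has fewer animals. Over all genes DESeq2 called 781 in liver, against 457 in the main analysis, age as a covariate left 274 and the fit of all 12 libraries gave 1057. In muscle DESeq2 called 274 genes and the fit of all 12 libraries called 20, in place of 121, and Mmp14 and Kdr did not pass in it (adjusted p = 0.312 and 0.102). With 1 library left out the counts over all genes were 84 to 285 in liver, 3 to 106 in muscle and 6 to 34 for the difference between tissues. Counts of 0 in muscle and for the difference between tissues were 0 under each alternative run, though over all genes DESeq2 called 184 for that difference, against 20 in the main analysis. In the tissue comparison the count was between 28 and 32, and 30 with the animal as a replicate block, which changed no call of a named collagen but that of Col5a3 (adjusted p = 0.00275; it also passed with RLE size factors, DESeq2 and no filter, at 0.0465, 0.0158 and 0.0257). The replicate block left 0 calls for the difference between tissues. Estimates near 0 changed sign: Col6a1 in liver was 0.012 with age as a covariate, and over the refits without 1 library the log2 difference ranged from -0.13 to 0.083 for Col6a1, from -0.0090 to 0.12 for Col18a1 and from -0.023 to 0.19 for Col14a1 in liver, from -0.18 to 0.20 for Col22a1 in muscle, and from -0.32 to 0.59 for Col1a1 and from -0.062 to 0.27 for Col4a2 in the difference between tissues. The counts of collagen genes lower with age ranged from 5 to 24 in muscle and from 0 to 1 in liver when 1 library was left out, and RLE size factors or the stricter filter did not move them by over 1.5 times. Of the 44 collagen genes, 15 fell below the filter on low counts in liver, and were not tested in the main comparison there.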
